A study of Mus musculus with 3 samples.

Results

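The cytoplasmic actin genes and the alpha- and beta-tubulin genes of mouse liver were described here across 3 RNA-seq libraries. The 10 members were taken by gene symbol from a table of 23361 genes. They were 2 actin genes (Actb and Actg1), 4 alpha-tubulin genes (Tuba1a, Tuba1b, Tuba1c and Tuba4a) and 4 beta-tubulin genes (Tubb2a, Tubb2b, Tubb4b and Tubb5). The rule used the gene name alone, and the list of names was drawn up with earlier results of these data known. All 10 reached 1 FPKM (fragments per kilobase of transcript, scaled to the size of the library) in at least 1 library and so were among the 10792 genes used as background. Tubb2b did so only through the IR library, where it was highest.

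Each condition was 1 library from C57BL/6J mice labelled male and 8 to 10 weeks old. The Sham library came from livers of mice operated on without closing a vessel. The WI (warm ischemia) library came after 90 min of clamping of the blood supply to the left and median lobes, with no reperfusion. The IR library came after the same 90 min of ischemia and a further 120 min of restored blood flow. The mice of all 3 groups were fasted before surgery and anesthetized with chloral hydrate. The study describes 6 mice per group, and whether 1 mouse or a pool stood behind each library is not given in the sources used here. Sham livers were collected at the end of the ischemia interval, so reperfusion and the added time cannot be told apart in the IR library.

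There was no replicate of any condition, so no difference had a replicate check and no p-value was computed. A gene was counted as different when FPKM + 1 differed by at least 2-fold. As a stricter description, the 95% bounds deposited with each FPKM were compared. These bounds come from the model of the authors' tool, and how it set their width is not given in the sources used here. With 1 library per condition they do not measure the spread between mice. For the members they reached between 46.3% and 74.9% of the FPKM on either side, with a median of 48.7%. Bulk liver RNA was measured, so more cells of a type and more RNA per cell cannot be told apart.

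Some facts of the libraries touch every comparison below. Xist, the RNA of the inactive X chromosome in females, was at 18.9 FPKM in Sham, 20.1 in WI and 1.29 in IR. The Y-linked gene Eif2s3y was at 0 FPKM in Sham and WI and 13.2 in IR, and Ddx3y was at 0, 0.00849 and 8.58 FPKM. The libraries labelled Sham and WI therefore went against their male label, and the sex of the animals cannot be told apart from reperfusion in any comparison with IR. Summed FPKM was 475754 in Sham, 487912 in WI and 712423 in IR. Of the 7 hepatocyte markers, Alb (albumin) was listed at 0 in each library with a flag for too much data. The other 6 were detected, with Ttr (transthyretin) at 4241 to 5765 FPKM. Over all genes that flag was set for 1 gene in Sham, 1 in WI and 7 in IR. The summed FPKM of IR may therefore leave out abundant genes that count in the other libraries. How this affects rescaling to the same FPKM sum was not tested.

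Actins and tubulins are the building blocks of the cytoskeleton. Beta-actin (Actb) and gamma-actin (Actg1) are the non-muscle actins, which assemble into filaments under the plasma membrane, around bile canaliculi and in moving cells. Microtubules are built from dimers of 1 alpha- and 1 beta-tubulin, and each kind of chain is made from several genes whose products differ mainly at their carboxyl end. In hepatocytes microtubules carry secretory vesicles. Actin genes are classical targets of serum response factor, which binds the CArG box, and free tubulin is known to shorten the life of tubulin mRNAs during translation.

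The members resemble each other closely, which bears on every value given here. The first 30 coding bases of the cytoplasmic actins, from the GENCODE M1 transcripts, are shown because the proteins differ most at their start; capitals mark the 8 bases of Actg1 that differ from Actb.
Actb: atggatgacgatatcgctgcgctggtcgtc
Actg1: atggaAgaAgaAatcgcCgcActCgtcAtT
Over all 1128 coding bases, the 2 actins differed at 128 and were 88.7% identical.

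The last 60 coding bases of the beta-tubulins, stop codon included, show where the family members diverge. Capitals mark bases that differ from Tubb5, inserted bases included.
Tubb2a: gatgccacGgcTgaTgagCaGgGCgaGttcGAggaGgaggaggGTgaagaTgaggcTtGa
Tubb2b: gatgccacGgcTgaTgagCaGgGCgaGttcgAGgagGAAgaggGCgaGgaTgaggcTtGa
Tubb4b: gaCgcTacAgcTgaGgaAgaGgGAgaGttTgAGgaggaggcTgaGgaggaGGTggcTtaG
Tubb5: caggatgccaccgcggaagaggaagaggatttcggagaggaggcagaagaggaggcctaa
In this stretch Tubb2a differed from Tubb5 at 16 bases, Tubb2b at 19 and Tubb4b at 20. Over the whole coding sequence Tuba1a, Tuba1b and Tuba1c were 97.6% to 98.4% identical in pairs, whereas Tuba4a was 85.3% to 85.6% identical to them. Tubb2a and Tubb2b were 96.5% identical, and the other pairs of beta-tubulins 82.4% to 84.8%.

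A read that lies wholly in sequence shared without a difference cannot be placed at 1 gene by its own bases. The study counted read pairs, and the mate of a read may lie in other sequence. The shares below are therefore shares of sequence and not of reads without a place. The share of 50-base stretches of each GENCODE M1 transcript that occurs again outside its own gene in the NCBIM37 genome was 96.7% for Actg1, 82.9% for Tuba1b, 69.6% for Tuba1a, 60.7% for Tuba1c, 57.9% for Tubb4b, 57.3% for Tubb2b and 50.4% for Tubb2a. It was 15.4% for Actb, 1.55% for Tuba4a and 1.39% for Tubb5. Actg1 shared 2.10% of its stretches with transcripts of other protein-coding genes, so nearly all of its copies lay outside those transcripts. Tuba1a, Tuba1b and Tuba1c shared 57.1% to 64.6% of their stretches with other transcripts, and Tubb2a and Tubb2b 46.4% and 38.0%. How the reads of these genes were divided is not given in the sources used here. Levels of Tuba1a, Tuba1b and Tuba1c, of Tubb2a and Tubb2b, and of Actg1 and Tubb4b against their genomic copies are therefore uncertain, while Actb, Tuba4a and Tubb5 had mostly sequence of their own.

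**Figure D1:**
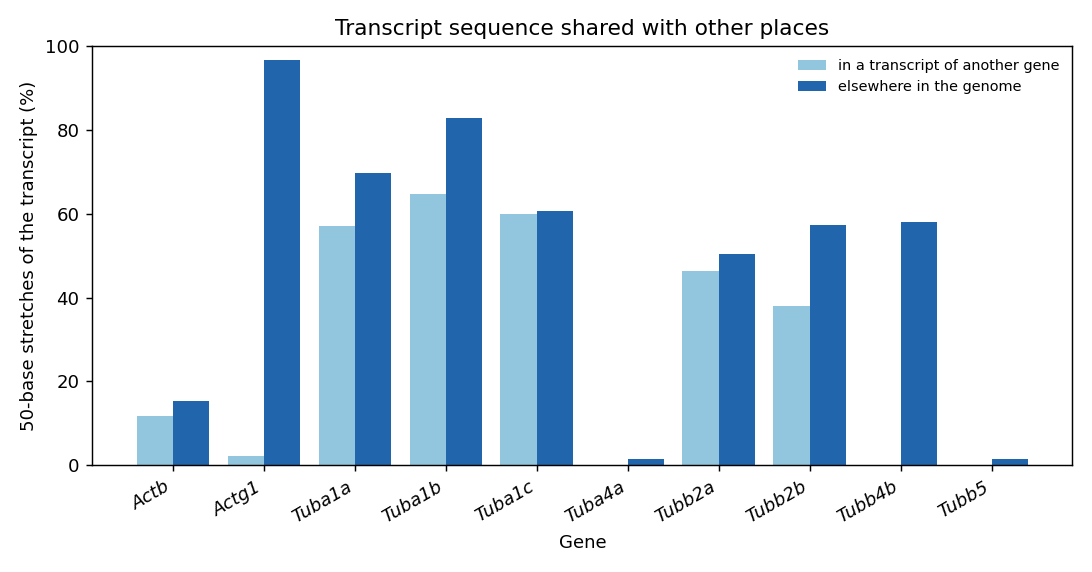
Bars show, for each member, the percentage of 50-base stretches of its transcript that also occur in a transcript of another protein-coding gene (light) or elsewhere in the NCBIM37 mouse genome (dark). Actg1 has the tallest dark bar at 96.7%, and Tuba4a and Tubb5 have the lowest at 1.55% and 1.39%.

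Beta- and gamma-actin were the members with the highest level in each library (plot of FPKM by library). Actb, on chromosome 5 (142903116-142906724, mm10), was at 131 FPKM in Sham (bounds 64.0 to 199), 148 in WI (70.8 to 226) and 301 in IR (127 to 474). Sham and WI were close, IR was higher, and the bounds of all 3 libraries overlapped. The change of log2(FPKM + 1) was 0.17 for WI against Sham, 1.01 for IR against WI and 1.19 for IR against Sham, the last being 2.29-fold in FPKM.

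Actg1, on chromosome 11 (120345690-120348484, mm10), was at 90.2 FPKM in Sham (45.4 to 135), 91.1 in WI (45.7 to 137) and 340 in IR (136 to 544). Sham and WI did not differ beyond their bounds. The lower bound in IR, 136.499, was above the upper bound in Sham, 134.998, and just under the upper bound in WI, 136.536, so IR was separate from Sham and overlapped WI by a narrow margin. With the libraries rescaled to the same FPKM sum, or to the sum without the 17 top genes, IR and Sham overlapped as well. The log2 change was 0.01 for WI against Sham, 1.89 for IR against WI and 1.90 for IR against Sham. In FPKM, IR was 3.73-fold WI and 3.77-fold Sham. Ranked from the highest increase down in IR against Sham, Actg1 was 159th and Actb 422nd of the 10792 genes.

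Gamma-actin passed beta-actin in the IR library. The ratio of Actb to Actg1 was 1.46 in Sham, 1.63 in WI and 0.884 in IR. Actg1 made up 40.7% of the summed FPKM of both in Sham, 38.1% in WI and 53.1% in IR. The bounds of Actb and Actg1 overlapped within each library, so their order was not separated in any of them. Together they summed to 222 FPKM in Sham, 239 in WI and 641 in IR.

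The muscle actin genes were near 0 in each library. Acta1 was at 0 FPKM throughout, Actg2 at 0.0880 to 0.239 FPKM, and Acta2, the actin of smooth muscle and activated stellate cells, at 0.633 in Sham, 1.04 in WI and 1.36 in IR. Of the 5 other actin genes searched, Acta2 was the 1 that passed the 1-FPKM filter.

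**Figure D2:**
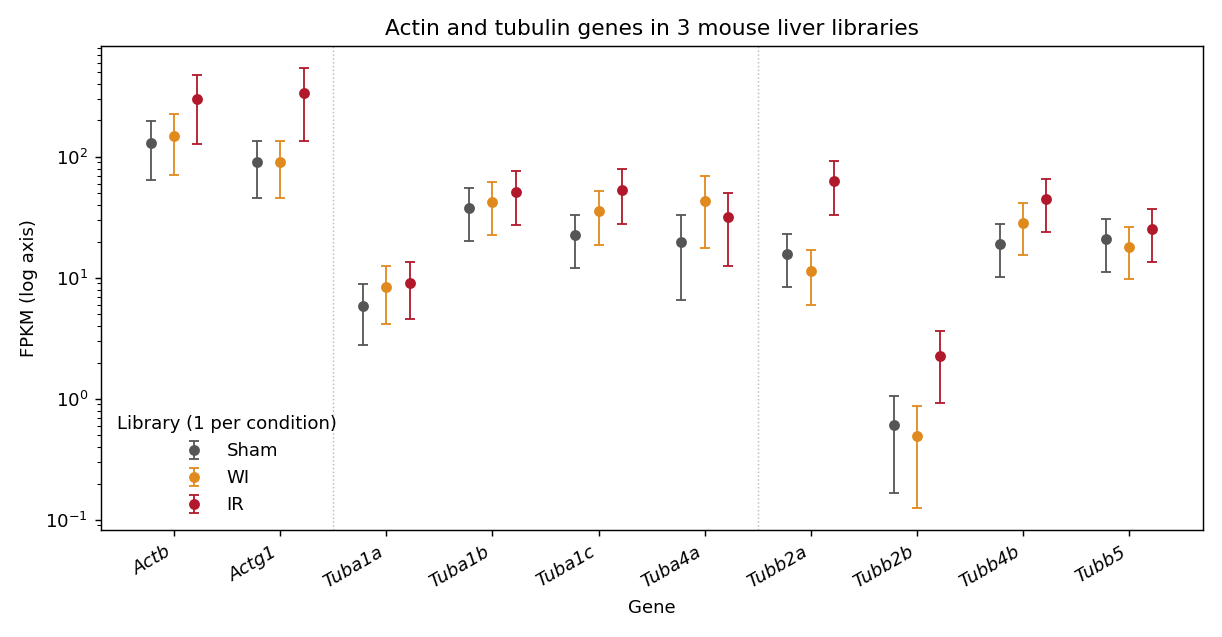
Points give the FPKM of each member in the Sham, WI and IR libraries on a log axis, and bars the deposited 95% bounds. IR is highest for each member except Tuba4a, which is highest in WI, and the bounds of IR clear those of both other libraries for Tubb2a alone.

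Of the 4 alpha-tubulin genes, Tuba1c was at least 2-fold higher in IR than in Sham and Tuba4a at least 2-fold higher in WI than in Sham. Tuba1a, Tuba1b and Tuba1c lie together on chromosome 15, Tuba1a and Tuba1b on the minus strand and Tuba1c on the plus strand. Tuba1b (98931431-98934390, mm10), the most abundant alpha-tubulin in Sham, was at 37.5 FPKM in Sham (20.1 to 54.9), 42.1 in WI (22.5 to 61.7) and 51.7 in IR (27.4 to 76.0). Its bounds overlapped throughout, and the log2 change in IR against Sham was 0.45. Tuba1a (98949847-98953501), the isotype best known from developing neurons, was the lowest of the 4 at 5.86 FPKM in Sham (2.77 to 8.95), 8.39 in WI (4.19 to 12.6) and 9.13 in IR (4.60 to 13.6). Its values overlapped as well, with a log2 change of 0.56 in IR against Sham.

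Tuba1c (99029891-99038105) was at 22.7 FPKM in Sham (12.2 to 33.2), 35.4 in WI (18.9 to 51.9) and 53.3 in IR (27.9 to 78.7). It had an intermediate value in WI, with a log2 change of 0.62 in WI against Sham and 0.58 in IR against WI. IR was 2.35-fold Sham, a log2 change of 1.20, with overlapping bounds.

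Tuba4a, on chromosome 1 (75210829-75219253, mm10), was the member that was highest in WI. It was at 19.8 FPKM in Sham (6.61 to 32.9), 43.6 in WI (17.7 to 69.5) and 31.6 in IR (12.4 to 50.7). WI was 2.21-fold Sham, IR lay between the other libraries, and the bounds of all 3 overlapped. The log2 change was 1.10 in WI against Sham, -0.45 in IR against WI and 0.65 in IR against Sham. In WI against Sham it was 66th from the top of the 10792 genes. Its interval in the files is the same as that of Stk16, a kinase gene that was at 13.5 FPKM in Sham, 14.4 in WI and 13.2 in IR, and whether reads were counted by strand is not given in the sources used here.

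Among the members, the beta-tubulins held both the largest and the smallest change in IR against Sham. Tubb2a, on chromosome 13 (34074280-34078008, mm10), was at 15.8 FPKM in Sham (8.42 to 23.2), 11.5 in WI (5.98 to 16.9) and 63.1 in IR (32.9 to 93.2). IR was above both other libraries and its bounds were separate from each, although those of Sham overlapped IR with the libraries rescaled to the same FPKM sum. It was 5.50-fold WI and 3.98-fold Sham, with log2 changes of 2.36 and 1.93, and WI against Sham was -0.43. Ranked from the highest increase down, it was 122nd of all genes in IR against WI and 154th in IR against Sham.

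Tubb2b, its neighbour on chromosome 13 (34127008-34130354, mm10) and a beta-tubulin of developing brain, was the lowest member in each library. It was at 0.612 FPKM in Sham (0.168 to 1.06), 0.498 in WI (0.125 to 0.871) and 2.28 in IR (0.932 to 3.63). IR was the highest, separate from WI and overlapping Sham, and it overlapped WI too with the libraries rescaled to the same FPKM sum or to the sum without the 17 top genes. In FPKM, IR was 4.59-fold WI and 3.73-fold Sham, and on the log2(FPKM + 1) scale, which understates low genes, the changes were 1.13 and 1.03. How reads from the sequence it shares with Tubb2a were divided between both genes was not tested.

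Tubb4b, on chromosome 2 (25218745-25224702, mm10), encodes a widely expressed beta-tubulin. It was at 19.1 FPKM in Sham (10.2 to 28.0), 28.7 in WI (15.4 to 42.0) and 45.1 in IR (23.9 to 66.2). WI was intermediate, as for Tuba1c, and the bounds overlapped. The log2 change was 0.56 in WI against Sham, 0.63 in IR against WI and 1.19 in IR against Sham. The gene overlapping it in the files, Fam166a, was at 0 FPKM in each library.

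Tubb5, on chromosome 17 (35833920-35838301, mm10), encodes a broadly expressed beta-tubulin that often serves as a loading reference. It was at 20.8 FPKM in Sham (11.2 to 30.5), 18.2 in WI (9.75 to 26.6) and 25.4 in IR (13.6 to 37.3). All bounds overlapped. The log2 change in IR against Sham was 0.28, the smallest of the members, and in WI against Sham it was -0.19.

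In summed levels, the alpha-tubulin genes were at 85.8 FPKM in Sham, 130 in WI and 146 in IR, and the beta-tubulin genes at 56.4, 58.8 and 136. The ratio of alpha to beta was 1.52 in Sham, 2.20 in WI and 1.07 in IR. With Tubb6 added to the beta-tubulins, the ratio was 1.43, 2.03 and 0.824. The sums of the lower and upper bounds of both families overlapped in each library, at 41.7 to 130 and 30.02 to 82.8 FPKM in Sham, 63.3 to 196 and 31.3 to 86.4 in WI, and 72.4 to 219 and 71.3 to 200 in IR.

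The isotype make-up differed between libraries. Tuba4a was 23.0% of summed alpha-tubulin FPKM in Sham, 33.7% in WI and 21.7% in IR. Tuba1b was the largest alpha share in Sham at 43.7%, Tuba4a in WI, and Tuba1c in IR at 36.6%. Tubb2a was 28.1% of summed beta-tubulin FPKM in Sham, 19.5% in WI and 46.4% in IR, while Tubb5 was 36.9%, 30.9% and 18.7%. Tubb4b was the largest beta share in WI at 48.8%. Tuba1a stayed between 6.26% and 6.83% of the alpha sum. These shares carry the wide bounds given above and had no replicate.

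**Figure D3:**
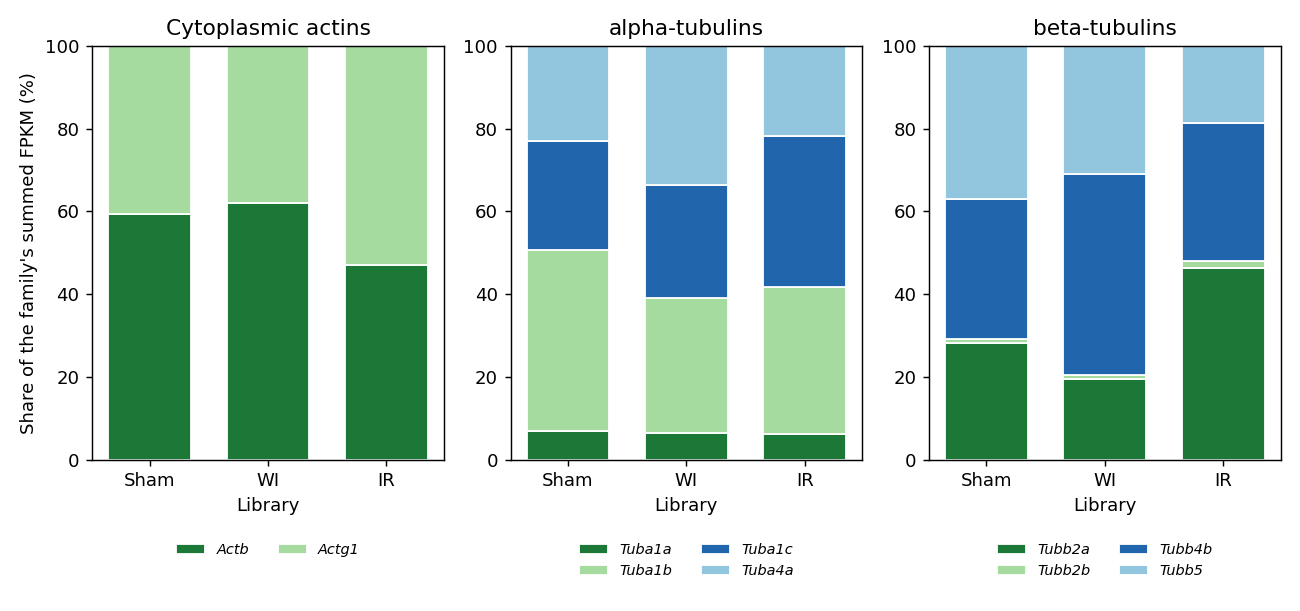
Stacked bars give each gene's share of the summed FPKM of its family in the Sham, WI and IR libraries. Actg1 takes 53.1% of the actin bar in IR, Tuba4a 33.7% of the alpha-tubulin bar in WI, and Tubb2a 46.4% of the beta-tubulin bar in IR.

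The order of the levels within a library was only partly resolved. Actb had the highest and Actg1 the next level in Sham and WI, with the reverse in IR. Of the 9 pairs of neighbours in that order, 1 had separate bounds in Sham, 1 in WI and 2 in IR. Tuba1a was separate from Tubb2b below it in each library, and in IR Actb was also separate from Tubb2a, which was the third there. Tubb2a was in the eighth place in Sham and WI and the third in IR. Tuba4a was the sixth in Sham, the third in WI and the seventh in IR.

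Counted over the members, 1 of 10 (Tuba4a) was at least 2-fold higher in WI than in Sham, against 0.751% of the 10792 genes, and 0 were at least 2-fold lower, against 1.1%. In IR against WI, 4 of 10 (Actb, Actg1, Tubb2a and Tubb2b) were at least 2-fold higher, against 5.78%, and 0 were lower, against 1.43%. In IR against Sham, 6 of 10 (Actb, Actg1, Tuba1c, Tubb2a, Tubb2b and Tubb4b) were at least 2-fold higher, against 5.35%, and 0 were lower, against 2.15%. Tubb2b passed the 1-FPKM filter only through the IR library, so the filter favoured its call in both IR counts. With a filter of 5 FPKM, which Tubb2b did not reach, 3 members were higher in IR against WI (7.27% of genes). With that filter, 5 members were higher in IR against Sham (6.97%). The 3 comparisons share libraries and are not independent of each other, and closely related members may share reads.

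By bounds, 0 of 10 members were separate in WI against Sham, where 0.195% of the genes were separate and higher and 0.482% separate and lower. In IR against WI, 2 (Tubb2a and Tubb2b) were separate and higher, against 3.22%, and 0 lower, against 0.398%. Of these, Tubb2b passed the filter only through the IR library. In IR against Sham, 2 (Actg1 and Tubb2a) were separate and higher, against 2.7%, and 0 lower, against 1.12%. Rescaled to the same FPKM sum, 1 member (Tubb2a) was separate in IR against WI, against 2.12% of genes, and 0 in IR against Sham, against 1.54%. Separation by bounds held for fewer members than the 2-fold rule in each comparison.

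The median log2 change of the members was 0.17 in WI against Sham, 0.605 in IR against WI and 1.11 in IR against Sham. Over all 10792 genes it was 0.02, 0.03 and 0.05. In WI against Sham 7 members were above 0 and 3 below, against 52.5% of all genes above 0. There Actg1 turned below 0 when each library was rescaled to the same FPKM sum. Actb, Actg1, Tuba1a and Tuba1b did so when rescaled to equal Gapdh. In IR against WI 9 were above 0 and 1 below, against 52.4% of all genes above 0. Tuba1a, Tuba1b and Tubb5 among the 9 turned below 0 when rescaled to the same FPKM sum. In IR against Sham all 10 were above 0 as deposited, against 54.4% of all genes. Tuba1b and Tubb5 turned below 0 when rescaled to the same FPKM sum, and Tuba1a, Tuba1b, Tuba4a and Tubb5 when rescaled to equal Gapdh. Rescaling to the same sum moved the median of all genes in IR against Sham to -0.45 and that of the members to 0.62, which left the members 1.08 above the median gene, compared with 1.05 as deposited. The number of members at least 2-fold higher in IR against Sham was then 2 (Actg1 and Tubb2a), against 2.96% of genes, and the split over all genes became 319 higher and 1554 lower in place of 577 and 232.

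**Figure D4:**
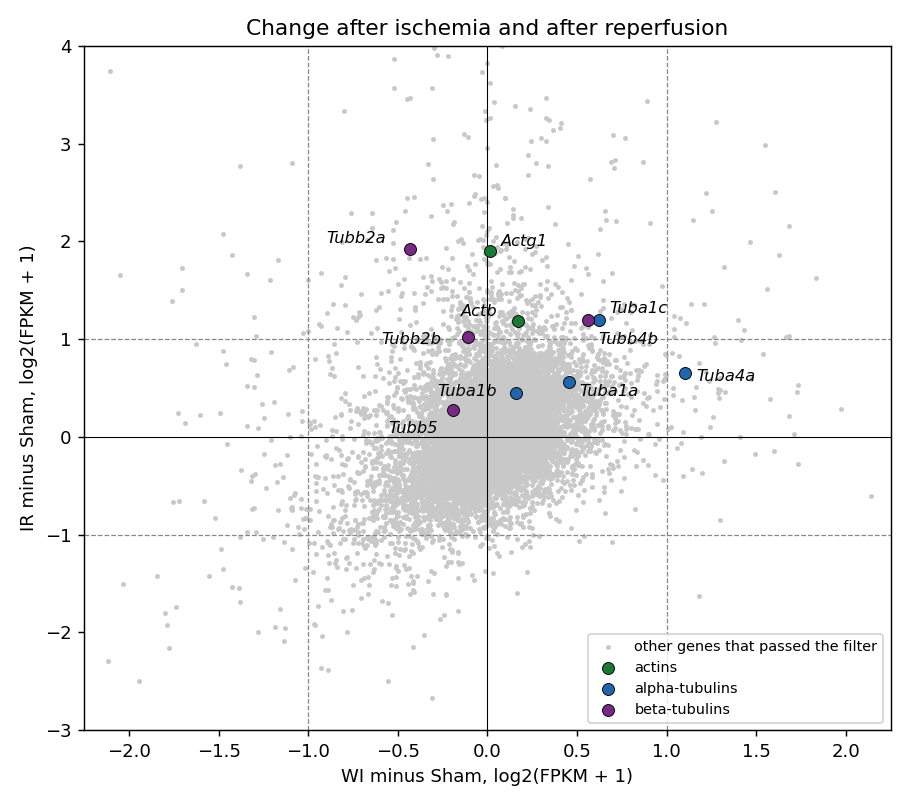
Each point is a gene, with its change of log2(FPKM + 1) from Sham to WI on the horizontal axis and from Sham to IR on the vertical axis; dashed lines mark 2-fold and 58 genes fall outside the plotted range. Both axes share the Sham library. Actg1 and Tubb2a stand near 1.9 on the vertical axis, Tuba4a is past the dashed line at 1 on the horizontal axis, and Tubb5 is the lowest member on the vertical axis.

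Actb and Tubb5 are often used to scale other measurements, so the members were also set against 15 common reference genes. Over the 3 libraries, log2 of the highest over the lowest FPKM was 0.49 for Tubb5, 1.19 for Actb and 1.91 for Actg1. The reference genes lay between 0.24 for Gusb and 0.997 for Gapdh. On the scale as deposited, Actb and Actg1 thus had a wider span than each of the 15. Tubb5 was 11th from the narrowest of these 18 genes. The spans and their order depend on the scale and were not computed on a rescaled one. Rescaled to the same FPKM sum, the log2 change in IR against Sham was 0.61 for Actb and 1.33 for Actg1. Gapdh, a glycolytic enzyme, was at 850 FPKM in Sham, 1231 in WI and 1696 in IR. The other 2 reference genes with the highest levels were Eef1a1, a translation factor, at 2196, 2295 and 2805 FPKM, and B2m, the light chain of class I molecules, at 2097, 2484 and 2638 FPKM.

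As a ratio to each reference gene in turn, Actb, Actg1, Tuba1c, Tubb2a, Tubb2b and Tubb4b were higher in IR than in Sham against all 15. These are the 6 members counted as 2-fold higher. The largest change of a reference gene was 0.996 for Gapdh, so this result follows from those counts. The 15 ratios of a member use the same libraries and are not separate checks. They were not computed for all genes. The median log2 change of the ratio was 0.84 for Actb, 1.56 for Actg1 and 1.64 for Tubb2a, and the lowest, against Gapdh, was 0.20, 0.92 and 0.997. Tubb5 was higher against 4 of 15 and Tuba1b against 10 of 15. In WI against Sham, the ratio of Tuba4a was higher against all 15, with a median of 1.07, and that of Tubb2a was higher against 0 of 15, with a median of -0.54.

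Promoter sequence from RefSeq (GRCm38.p6, 250 bases before to 50 after the start site) was found for 8 of the 10 members; Actb and Tubb2b had no entry in the table. The 150 bases before the start site are shown for the actin and the tubulin with the largest change in IR against Sham, for the tubulin highest in WI, and for the tubulin with the smallest change. Capitals mark the CArG box in Actg1, TGACGTCA and TATAAA in Tubb2a, and CCAAT in Tubb5. Actg1 also holds CCAAT, at -120 to -116 from the start site, which is left in small letters, as is GGGCGG in each gene. The intervals, all on the minus strand, are chr11:120348496-120348645 for Actg1, chr13:34078009-34078158 for Tubb2a, chr1:75219295-75219444 for Tuba4a and chr17:35838302-35838451 for Tubb5.
Actg1: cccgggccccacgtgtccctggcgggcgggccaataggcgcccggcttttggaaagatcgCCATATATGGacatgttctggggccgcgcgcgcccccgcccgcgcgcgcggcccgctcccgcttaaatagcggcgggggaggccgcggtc
Tubb2a: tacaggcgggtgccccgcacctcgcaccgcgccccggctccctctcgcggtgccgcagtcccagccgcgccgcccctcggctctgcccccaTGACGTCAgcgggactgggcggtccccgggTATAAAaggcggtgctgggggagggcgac
Tuba4a: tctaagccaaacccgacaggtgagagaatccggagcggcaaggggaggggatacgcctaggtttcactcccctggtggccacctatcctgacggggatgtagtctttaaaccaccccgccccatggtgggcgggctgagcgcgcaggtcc
Tubb5: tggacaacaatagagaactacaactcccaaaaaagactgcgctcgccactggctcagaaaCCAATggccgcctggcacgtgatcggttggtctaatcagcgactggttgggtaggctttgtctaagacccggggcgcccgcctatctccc

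Motifs were searched on both strands of these 300-base windows. The CArG box was in 1 of the 8 members, Actg1, from 90 to 81 bases before the start site, and in 1.63% of all 32851 windows in the table. TGACGTCA, the cyclic AMP response element, was in Tubb2a alone, 59 to 52 bases before the start site, and in 1.79% of all windows. TATAAA was in Tubb2a and Tubb4b and in 13.6% of windows, CCAAT in 5 of the 8 and 37.4%, and GGGCGG in 7 of the 8 and 35.7%. In Tubb2a TATAAA lay at -29 to -24 from the start site, and in Tubb4b at 18 to 23, after it. TGACTCA, the AP-1 site, was in 0 of the 8 and 5.20% of windows. No overlap was found between the CArG box, TGACGTCA and TATAAA in these windows. A match describes letters and not a bound site.

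The other genes of the actin and microtubule system were read from lists chosen with earlier results of these data known, and are described by counts (plot of IR against Sham by list). Over all 10792 genes, 5.35% were at least 2-fold higher in IR than in Sham and 2.15% at least 2-fold lower. The list counts here and below are on the scale as deposited and were not repeated with rescaling. Of the 12 other tubulin genes 4 passed the filter, and Tubb6, a more divergent beta-tubulin, was at 3.55 FPKM in Sham, 5.05 in WI and 41.1 in IR, a log2 change of 3.21 in IR against Sham with separate bounds (1.56 to 5.55 and 21.8 to 60.4). The other 3 were within 2-fold, among them Tubg1, the gamma-tubulin of microtubule nucleation, at 8.62, 10.1 and 11.3 FPKM, and Tuba8 at 0.960, 2.04 and 1.01 FPKM.

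The partners that build actin filaments were mostly within 2-fold. Of the 15 genes of the Arp2/3 complex, which branches filaments, and its activators, 0 were 2-fold different in IR against Sham, with a median of 0.13. Arpc2 was at 66.6, 66.2 and 75.2 FPKM in Sham, WI and IR, Arpc3 at 66.5, 65.8 and 109, and Brk1 at 36.7, 36.4 and 47.5. The WI value of Actr3 in this list carried the authors' flag of a failed estimate. Of the 16 genes that passed for monomer binding, severing and capping, 0 were 2-fold different, with a median of 0.26, and profilin (Pfn1) was at 147, 177 and 224 FPKM, cofilin (Cfl1) at 132, 148 and 198 and Tmsb4x, which sequesters actin monomers, at 403, 324 and 301. The list of crosslinkers, tropomyosins and non-muscle myosins had 21 genes. Of these, 3 were at least 2-fold higher in IR than in Sham, against 5.35% of all genes, and 0 lower, against 2.15%. The median was 0.22. The genes at least 2-fold higher were Vcl (vinculin, of focal adhesions), with a log2 change of 1.56, Tpm4 with 1.41 and Myh9, the heavy chain of non-muscle myosin, with 1.15. The most abundant genes of the list were light chains, with Myl6 at 252, 266 and 389 FPKM, Myl12b at 54.2, 56.8 and 57.5 and Myl12a at 34.9, 32.9 and 55.2.

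The list of SRF, MRTF and their targets had 15 genes that passed. Of these, 4 were at least 2-fold higher in IR than in Sham, against 5.35% of all genes, and 0 lower, against 2.15%. The median was 0.53. Thbs1 (thrombospondin) was at 0.269, 0.612 and 11.0 FPKM, Fos at 8.31, 28.9 and 40.6 and Cyr61 at 4.71, 10.2 and 15.7, and Vcl was the other. Thbs1 passed the 1-FPKM filter only through the IR library, where it was highest. Fos, an immediate early gene, was the 1 gene of this list at least 2-fold higher in WI than in Sham, against 0.751% of genes. Egr1, another immediate early gene, was at 60.2, 64.9 and 88.6 FPKM and Tagln2 at 16.1, 19.0 and 23.7.

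The machinery that folds actin and tubulin was within 2-fold throughout in IR against Sham. The 14 genes of the CCT chaperonin and prefoldin had a median of 0.40, with Cct5 at 54.2, 56.8 and 73.2 FPKM, Cct8 at 45.4, 50.3 and 54.7 and Pfdn5 at 75.4, 68.6 and 97.9. The 9 tubulin cofactors and turnover genes had a median of 0.14, with Tbca at 93.4, 104 and 123 FPKM and Tbcb at 9.48, 14.7 and 15.9. Stmn1 (stathmin), which binds tubulin dimers, was at 8.50, 4.86 and 13.7 FPKM. It was the 1 gene of that list at least 2-fold higher in IR than in WI, against 5.78% of all genes. Of the 17 microtubule-associated genes that passed, 0 were 2-fold different, with a median of -0.03. Map1lc3b, a microtubule-associated protein of autophagy, was at 85.4, 60.8 and 113 FPKM, Mapre3 at 9.29, 9.45 and 11.1 and the motor Kif5b at 8.41, 6.97 and 8.78.

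Of the 9 intermediate filament genes, 4 were at least 2-fold higher in IR than in Sham, against 5.35%, and 0 lower, against 2.15%. The median was 0.63. Krt8 and Krt18, the keratin pair of hepatocytes, were at 69.4, 112 and 492 FPKM and at 46.9, 86.4 and 335 FPKM, with log2 changes of 2.81 and 2.81 in IR against Sham. Lmna (lamin A/C) was at 9.16, 12.0 and 26.9 FPKM, Plec (plectin) at 2.74, 3.41 and 11.3 and Vim (vimentin) at 19.5, 12.9 and 25.0. Krt8 and Krt18 thus had larger values of change than each of the 10 members, while the keratin Krt23 changed by 0.55.

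**Figure D5:**
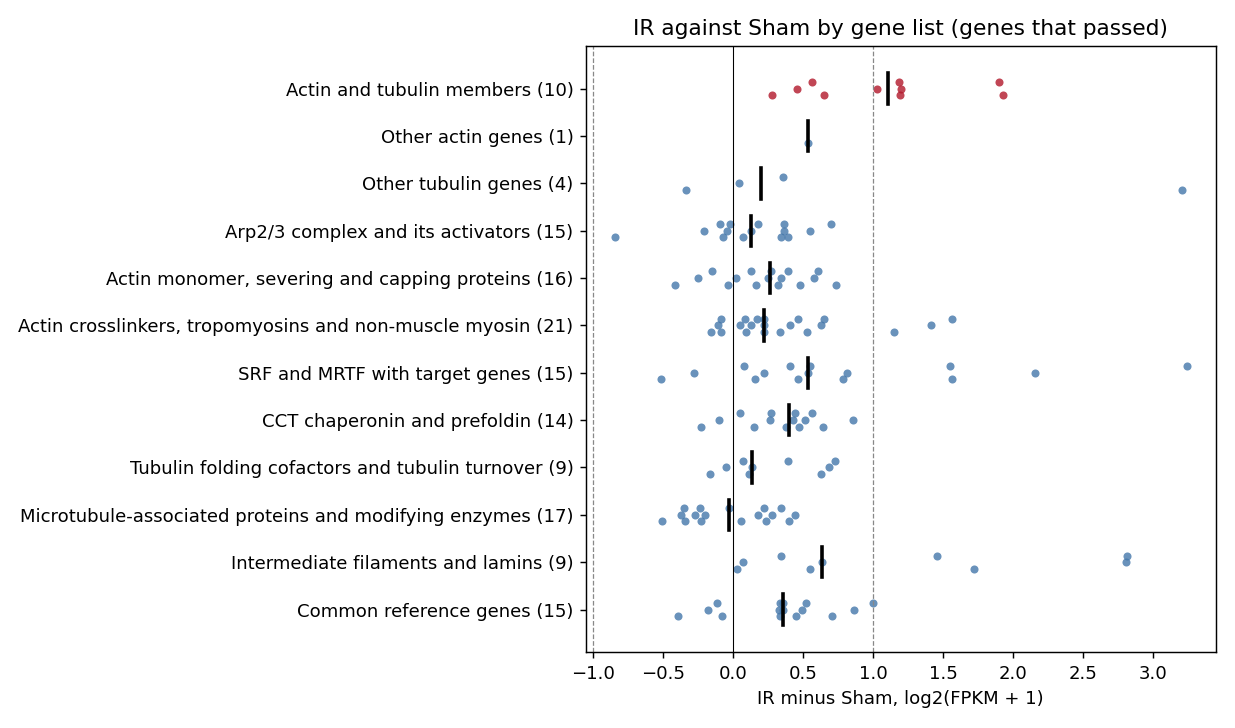
Points give the change of log2(FPKM + 1) from Sham to IR for each gene that passed the filter, by list, with the number of genes in parentheses, and black bars the list medians. The members have a median of 1.11, and the reference genes 0.35; dashed lines mark 2-fold.

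Markers of other liver cell types moved between the libraries beside the members, and their part in the members' values was not tested. Summed over the 6 neutrophil markers found in the files, the level was 25.3 FPKM in Sham, 19.3 in WI and 460 in IR. Of the 6, 5 were at least 2-fold higher in IR than in Sham, against 5.35% of all genes. Of these 5, Cxcr2 passed the 1-FPKM filter only through the IR library. S100a8 was at 13.6, 9.17 and 212 FPKM, S100a9 at 8.86, 8.07 and 204, Retnlg at 1.53, 1.18 and 36.6, Csf3r at 1.17, 0.689 and 4.61 and Cxcr2 at 0.127, 0.163 and 3.65, while Mpo, of neutrophil precursors, was at 0 in IR. The 6 macrophage and Kupffer cell markers summed to 229, 125 and 92.8 FPKM. Among them, 4 (Clec4f, Csf1r, Emr1 and Cd163) were at least 2-fold lower in IR than in Sham, against 2.15% of all genes. The 6 endothelial markers summed to 124, 88.2 and 109 FPKM, with Lyve1 higher (11.2, 2.73 and 33.4) and Kdr lower (10.9, 9.45 and 4.80).

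The stellate and smooth muscle markers, 9 in all, summed to 26.3, 23.1 and 25.3 FPKM, with Lrat lower at 4.96, 4.12 and 1.46. The 5 cholangiocyte markers summed to 54.2, 62.0 and 93.6 FPKM, with Sox9, which passed the filter only through IR, at 0.275, 0.351 and 1.91. The 6 lymphocyte and pan-leukocyte markers summed to 12.4, 9.68 and 5.62 FPKM, with Ptprc at 5.48, 3.78 and 3.27. The 7 hepatocyte markers, Alb listed at 0 among them, summed to 14853, 11011 and 16857 FPKM. The 8 cell division markers summed to 5.65, 3.71 and 8.48 FPKM, with 0 of the 4 that passed at least 2-fold different. In IR the summed level was 460 FPKM for the neutrophil list, 641 FPKM for both actins and 282 FPKM for the 8 tubulins. These sums are over unlike genes and do not give the part of actin or tubulin RNA from neutrophils, which was not tested.

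The 5 genes whose pair of changes lay closest to that of the members' median (0.17 in WI against Sham and 1.11 in IR against Sham), among 4078 other genes with a mean of at least 10 FPKM, were Clu, Zfp330, Rps4y2, Ngdn and Wdr74. Clu (clusterin, a secreted chaperone) was nearest at a distance of 0.01 on the log2 scale, with 478 FPKM in Sham, 541 in WI and 1039 in IR. The other 4 were between 0.03 and 0.06 away. Likeness was measured over 3 libraries with 2 changes per gene, so many genes lie close by.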

How the data were processed

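RNA from 3 mouse liver libraries, 1 per condition, was sequenced on a HiSeq2000. Per the labels and the study's methods, the authors aligned reads to mm10 with TopHat2 2.0.9 and deposited, for each gene, FPKM and its 95% bounds from Cufflinks 2.0.2 at default settings. Read length, strandedness and the treatment of reads with several places are not given in the sources used here. Fragment counts per gene were not among the values used. The study lists the uniquely aligned read pairs of each library, and IR had the fewest pairs and the lowest aligned share. The total by which each FPKM was scaled is not given. Among 2135 genes above 0 and under 0.3 FPKM in each library, the commonest ratio was 0.900 for WI to Sham. It was 1.40 for IR to WI and 1.27 for IR to Sham. Only 9.98% to 12.1% of the genes were near it, so these ratios did not settle the relative depth.

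Values were analysed with Python 3.11.15, numpy 2.4.6 and pandas 2.3.3. Differences are on the log2(FPKM + 1) scale, for genes with at least 1 FPKM in at least 1 library. Gene intervals in the files count their start from 0, and 1 was added. The 50-base stretches were compared on both strands with numba 0.67.0, and coding sequences were aligned with Biopython 1.88. Named from each other list were the 3 genes with the highest mean FPKM and up to 5 of those at least 2-fold different in IR against Sham. The members and lists were chosen with earlier results of these data known.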

Additional observations from a re-analysis of the deposited data

How the results depend on the processing

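The counts of members depended on the scale and on the fold threshold. At least 4-fold higher were 0 members in WI against Sham (0.0649% of all genes), 1 in IR against WI (1.62%) and 0 in IR against Sham (1.31%), and at least 1.5-fold higher were 2 in WI against Sham (3.14%). With each library rescaled to a common FPKM sum (TPM), 2 members were at least 2-fold higher in IR against Sham (2.96% of all genes), the median of the members in IR against WI was 0.073, and separate bounds were found for 1 member in IR against WI (2.12% of genes separate and higher) and 0 in IR against Sham (1.54%). Rescaled to the sum without the 17 top genes, 2 members were 2-fold higher in IR against WI (3.81%) and 2 in IR against Sham (3.23%), and 1 member had separate bounds in each of these (2.46% and 1.83%). After seeing the data, rescaling to equal Gapdh and to an equal median of the 15 reference genes was added. With Gapdh, 0, 2 and 0 members were 2-fold higher in WI against Sham, IR against WI and IR against Sham (0.269%, 3.2% and 1.75%), and the median was -0.35 in WI against Sham and 0.21 in IR against Sham. With the median of the reference genes, 2 and 2 members were 2-fold higher in IR against WI and IR against Sham (3.98% and 3.22%). These rescalings moved the median of all genes too, in IR against Sham to -0.45, -0.25, -0.76 and -0.25 in the order given, and the members' median stayed 0.97 to 1.08 above it. Other pseudocounts, filters and the median ratio left the counts and medians within 1.5 times or within the bounds' spread. Of 210 single changes of members under other pseudocounts and scales, 180 moved by less than 1 SD of the deposited bounds, 30 by more, and 0 of the 2-fold calls turned their direction. No paired analysis was possible because each condition had 1 library, and for the same reason no replicate or batch could be left out.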
